A study of Mus musculus with 18 samples.

Results

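Transcripts of 7 mouse genes were followed: Atp1b1, Atp1b2 and Atp1b3, which encode beta subunits of the sodium-potassium pump, and Fxyd1, Fxyd3, Fxyd5 and Fxyd6, which encode small single-pass membrane proteins that associate with it. They were chosen by name from 32286 entries of the count table, and 6 of the 7 passed the filter on low counts, Fxyd6 being the exception. The counts came from mRNA sequencing of cultured mouse mammary carcinoma cells of the lines AT-3 and E0771. Both lines carried the doxycycline-inducible retroviral vector pRetroX, which held wild-type MRTFA, held MRTFA with a tyrosine changed to alanine (Y238A), or was empty. MRTFA, held in the cytoplasm by actin monomers, activates genes together with the transcription factor SRF, and the series describes Y238A as deficient in binding SRF. All 6 groups, the empty vector groups included, received doxycycline at 2 µg/ml for 48 h. Each had 3 libraries, 18 in all. The labels do not say whether a group was 1 clone or a pool. The design speaks of 3 replicate sets without saying what a set was or that separate cultures were used, so p-values measure only the spread between these libraries, which may be technical. The title of the series connects this gene expression to cell stiffness and to calcium and potassium in the cytoplasm, and the question here was which pump subunits changed.

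The sodium-potassium pump uses ATP to carry sodium out of the cell and potassium in, and so sets the gradients that other transporters and the resting potential depend on. Its catalytic alpha subunit needs a beta subunit, a glycosylated protein with a large outer domain, to fold and to reach the plasma membrane, and beta subunits on neighbouring epithelial cells also adhere to each other. FXYD proteins bind the alpha-beta pair and adjust its affinity for ions or its transport rate in a way that depends on the tissue.

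The libraries held between 81265466 and 115260128 counts. CPM values are the counts brought to one common library total after TMM scaling, and CPM per kb are these divided by the length of the principal transcript. The MRTFA construct entry stood at 5434 ± 1444 CPM in wild-type AT-3 libraries, 2104 ± 195 CPM with Y238A and 0.0160 ± 0.0138 CPM with empty vector (SD, n = 3 each). In E0771 it stood at 761 ± 91.1 CPM with wild-type MRTFA, 320 ± 37.4 CPM with Y238A and 0.0736 ± 0.0639 CPM with empty vector (SD, n = 3 each), so the construct level differed between lines as well as between constructs. Wild type stood above Y238A in both lines, so wherever the 2 constructs differ below, the mutation and the construct level cannot be told apart. Some libraries appeared to carry a little RNA of others. By the median of 240 genes that AT-3 expresses and E0771 hardly does, 0.508% of the AT-3 level was present in E0771 wild-type replicate 2. In E0771 the share was 0.269% in Y238A replicate 1, 1.35% in empty vector replicate 2 and 0.0616% or less elsewhere. By 33 genes that AT-3 expresses with wild-type MRTFA and hardly with empty vector, the share was 1.29% in Y238A replicate 1 of AT-3, 0.270% in replicate 2 and 0.111% in replicate 3. For these genes carry-over and expression with Y238A itself cannot be told apart. Results that rest on Y238A replicate 1 of AT-3 and the 3 named E0771 libraries, called the 4 carry-over libraries below, are given with and without them where this changed the call or moved the value by much. Replicate 1 of wild type in AT-3 and replicate 2 of Y238A in E0771 also differed more from the others of their group than those did from each other. Of 10 epithelial and mammary markers, Elf5 was at 0 counts in the Y238A groups of both lines and in wild-type E0771, and none was elsewhere. In AT-3 their summed level was 51.0 to 52.3 CPM with wild-type MRTFA, 81.5 to 99.8 CPM with Y238A and 18.2 to 18.5 CPM with empty vector. In E0771 the same sum was 578 to 691 CPM with wild-type MRTFA, 379 to 404 CPM with Y238A and 308 to 333 CPM with empty vector. The sum of 7 leukocyte markers in AT-3 was 24.7 to 25.3 CPM with wild-type MRTFA, 70.1 to 75.6 CPM with Y238A and 3.30 to 4.08 CPM with empty vector, with Cd3e at 0 counts with Y238A, and Cd3e and Adgre1 with empty vector. The sum of 7 fibroblast markers there was 284 to 296 CPM with wild-type MRTFA, 473 to 517 CPM with Y238A and 789 to 850 CPM with empty vector, Lum being at 0 in both MRTFA groups. In E0771 the leukocyte sum was 3.15 to 3.67, 11.6 to 17.7 and 3.33 to 4.98 CPM in the same order of constructs, and the fibroblast sum 132 to 145, 266 to 298 and 185 to 206 CPM. Such sums can rest on few genes. Of the leukocyte markers 3 were tested, here against empty vector in AT-3. All 3 rose with wild type (median log2 fold change 4.19), and 1 rose with Y238A (0.21). Of 9 epithelial and mammary markers tested there, 3 rose and 2 fell with wild type (0.13). With Y238A 2 rose and 1 fell (0.22). Of 5 fibroblast markers tested, 0 rose and 2 fell with wild type (-0.61), and 1 rose and 3 fell with Y238A (-0.52). Of all genes tested in AT-3, 36.4% rose and 32.2% fell with wild type, and 21.4% rose and 22.2% fell with Y238A. The part of these markers in the members' changes was not tested.

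Among the beta subunits, Atp1b3 was the most abundant per length in all 6 groups. In AT-3 all 3 beta subunits rose with wild-type MRTFA, where 36.4% of all genes tested rose. With Y238A only Atp1b3 of the 3 passed the test, at a smaller size, where 21.4% of all genes rose. In E0771 Atp1b3 passed with wild-type MRTFA at a size of 0.12 on the log2 scale, and neither of the others passed with either construct (11.2% of all genes rose with wild-type MRTFA). Fold changes are log2 values ± SE from edgeR's quasi-likelihood test over all 18 libraries, and a gene counts as changed past a Benjamini-Hochberg adjusted p of 0.05 over 17841 genes.

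Atp1b3 (ENSMUSG00000032412, GRCm38 chr9:96332655-96364442, minus strand) encodes the beta-3 subunit, which is found in many tissues. Its level in AT-3 was 449.6, 447 and 430.0 CPM with wild-type MRTFA, 263, 252 and 248 CPM with Y238A, and 159.8, 158 and 162 CPM with empty vector. The 3 groups did not overlap, with wild type on top and Y238A between it and the empty vector. The log2 fold change was 1.47 ± 0.04 for wild type against empty vector (adjusted p = 3.8e-17, edgeR), a fold of 2.77. For Y238A against empty vector it was 0.67 ± 0.04 (adjusted p = 2.9e-11), and for wild type against Y238A 0.80 ± 0.04 (adjusted p = 2.7e-13). In E0771 it was at 118.5, 120.3 and 122 CPM with wild-type MRTFA, 124, 114 and 117 CPM with Y238A, and 109, 111 and 112 CPM with empty vector. Here every library of either construct was above every empty vector library, but by little: 0.12 ± 0.04 for wild type (adjusted p = 0.030) and 0.10 ± 0.04 for Y238A (adjusted p = 0.12). The E0771 wild-type call was lost without E0771 wild-type replicate 1, 2 or 3, or empty vector replicate 1 or 2, each time at an adjusted p between 0.052 and 0.094. It was also lost with library totals (0.053), with no filter on low counts (0.087) and without the 4 carry-over libraries (0.14). The Y238A comparison in E0771 passed under DESeq2 (0.028), with library totals (0.034), with the stricter filter (0.014) and without Y238A replicate 2 (0.046).

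The RefSeq table for GRCm38.p6 holds a pair of start sites for Atp1b3, and the window from 250 bases before to 50 after the first is shown because this was the beta subunit that responded to both constructs in AT-3. Capitals mark the letters GGGCGG, or their reverse complement CCGCCC, a box known to be bound by factors of the SP family. The window covers chr9:96364382-96364681 on the minus strand and reads 5′ to 3′.
Atp1b3: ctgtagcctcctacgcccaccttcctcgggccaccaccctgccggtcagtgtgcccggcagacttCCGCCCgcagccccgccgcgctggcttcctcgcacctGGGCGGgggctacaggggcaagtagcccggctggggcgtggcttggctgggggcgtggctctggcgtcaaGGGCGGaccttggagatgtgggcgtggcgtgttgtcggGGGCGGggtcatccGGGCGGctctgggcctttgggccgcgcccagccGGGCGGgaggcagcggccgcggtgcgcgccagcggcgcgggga
It holds 6 matches, at positions 66, 103, 173, 211, 225 and 258 of the window, and 76.0% of its bases are G or C. The window of the other start site, chr9:96363666-96363965, holds none. Of 32851 promoters in the table, 35.7% hold the box at least once.

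Atp1b1 (ENSMUSG00000026576, chr1:164437109-164458355, minus strand) encodes the beta-1 subunit, known from kidney and other epithelia. Its level in AT-3 was 30.0, 28.8 and 28.8 CPM with wild-type MRTFA, 7.77, 8.75 and 7.97 CPM with Y238A, and 11.6, 12.04 and 10.5 CPM with empty vector. The 3 groups did not overlap, and here the Y238A libraries were the lowest. The log2 fold change was 1.36 ± 0.22 for wild type against empty vector (adjusted p = 2.6e-05, edgeR). Set against Y238A, wild type was at 1.84 ± 0.22 (adjusted p = 9.1e-07). For Y238A against empty vector it was -0.48 ± 0.22 and did not pass (adjusted p = 0.087). That comparison passed with AT-3 fitted alone (-0.48, adjusted p = 6.2e-05) and without the 4 carry-over libraries (-0.45, adjusted p = 0.015). In E0771 Atp1b1 was close to absent. It had 8, 14 and 6 counts in wild-type libraries, 6, 0 and 2 with Y238A and 8, 30 and 2 with empty vector. Both construct groups overlapped the empty vector group. Each wild-type library (0.0714 to 0.143 CPM) lay above each Y238A library (0 to 0.0569 CPM). The library with 30 counts was the empty vector library with 1.35% of the AT-3 level, and the log2 fold change of wild type against empty vector was -0.48 ± 0.62 with it (adjusted p = 0.64) and 0.95 without it. Y238A against empty vector was -2.20 ± 0.82 (adjusted p = 0.096), and passed under DESeq2 (adjusted p = 0.019) and without E0771 empty vector replicate 3 (-2.72, adjusted p = 0.013). It was -0.77 without empty vector replicate 2, the library with 30 counts (adjusted p = 0.62), -3.44 without Y238A replicate 1 (0.075) and -2.00 without the 4 carry-over libraries (0.24). Wild type against Y238A in E0771 was 1.72 ± 0.89 (adjusted p = 0.18), and passed at 2.55 without the 4 carry-over libraries. An exon of Nme7 on the opposite strand covers 575 exonic bases of Atp1b1, 18.7% of them, and without a stated strand setting the reads of the pair cannot be told apart there. Nme7 was at 7.67, 8.78 and 9.40 CPM in wild-type AT-3 libraries, 19.4, 18.8 and 20.2 CPM with Y238A, and 17.5, 16.6 and 18.05 CPM with empty vector. The part of Nme7 reads in the Atp1b1 counts was not tested.

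The Atp1b1 window, chr1:164458306-164458605 on the minus strand, is shown for the beta subunit that rose with wild-type MRTFA and was lowest with Y238A in AT-3. Capitals again mark GGGCGG or its reverse complement.
Atp1b1: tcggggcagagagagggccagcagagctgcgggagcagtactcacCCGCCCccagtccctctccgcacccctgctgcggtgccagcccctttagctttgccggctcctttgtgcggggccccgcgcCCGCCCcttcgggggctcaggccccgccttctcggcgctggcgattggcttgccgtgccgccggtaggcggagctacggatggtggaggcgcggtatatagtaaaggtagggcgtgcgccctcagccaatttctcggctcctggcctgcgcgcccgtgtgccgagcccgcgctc
It holds 2 matches, at positions 46 and 127, and 71.0% of its bases are G or C. A CArG box, the site that SRF binds, was searched in the windows of 6 of the 7 genes on both strands, Atp1b2 having no entry in the table. None of the 7 windows, with both of Atp1b3, held one, and 1.63% of all 32851 promoters did, so these letters are not in these 300 bases and nothing further was searched.

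Atp1b2 (ENSMUSG00000041329, chr11:69599736-69605942, minus strand) encodes the beta-2 subunit, known in brain as the adhesion molecule on glia. In AT-3 it was at 2.75, 3.43 and 3.29 CPM with wild-type MRTFA, 0.179, 0.2999 and 0.388 CPM with Y238A, and 0.486, 0.337 and 0.223 CPM with empty vector. All wild-type libraries lay above both other groups, which overlapped. The log2 fold change was 3.17 ± 0.37 for wild type against empty vector (adjusted p = 1.7e-07, edgeR), a fold of 9.01, and 3.45 ± 0.37 for wild type against Y238A (adjusted p = 6.7e-08). For Y238A against empty vector it was -0.28 ± 0.39 (adjusted p = 0.62). In E0771 it was at 0.305, 0.489 and 0.547 CPM with wild-type MRTFA, 0.721, 0.347 and 0.618 CPM with Y238A, and 0.212, 0.210 and 0.333 CPM with empty vector. Each Y238A library was above each empty vector library, at 1.16 ± 0.38 (adjusted p = 0.0503), and the wild-type libraries overlapped the empty vector libraries at 0.81 ± 0.38 (adjusted p = 0.13). The Y238A comparison passed under DESeq2 (adjusted p = 0.018) or its size factors (0.048), with library totals (0.047), with the stricter filter (0.033) and without E0771 Y238A replicate 2 (0.020). Beside the rise of Atp1b2 in AT-3, the summed level of 9 neural and glial markers was 18.6 to 20.9 CPM with wild-type MRTFA, 15.1 to 18.05 CPM with Y238A and 32.7 to 37.8 CPM with empty vector, with 1, 1 and 3 of them at 0 counts. Snap25 was at 0 with wild-type MRTFA and with Y238A, and Sox10, Syp and Rbfox3 with empty vector. Of the 7 of these markers tested, 3 rose and 2 fell with wild-type MRTFA (median 0.83), where 36.4% of all genes rose and 32.2% fell. With Y238A 0 rose and 1 fell (median 0.73), where 21.4% of all genes rose and 22.2% fell. The part of these markers in the result was not tested.

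**Figure D1:**
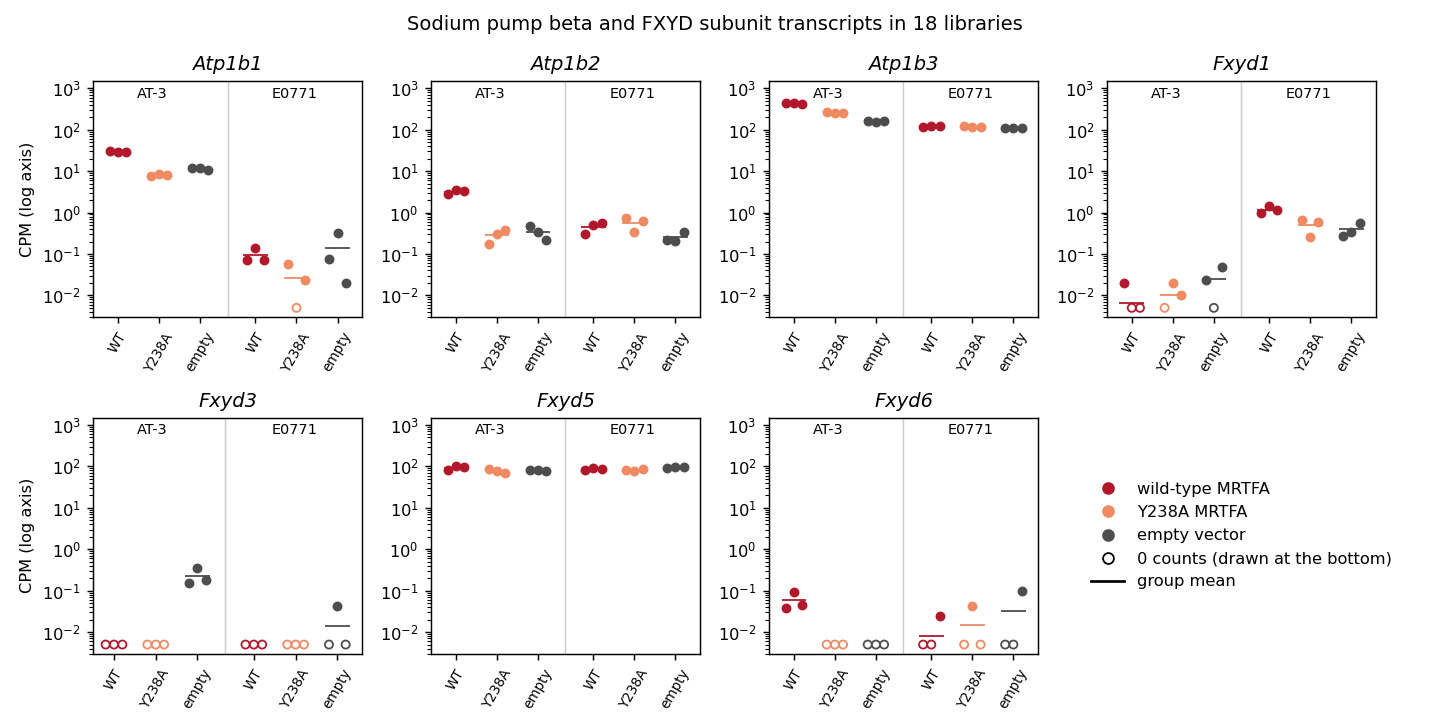
CPM of the 7 genes in each of the 18 libraries on a log axis, by line and construct; points are libraries, lines are group means, and open circles are libraries with 0 counts. Atp1b1, Atp1b2 and Atp1b3 stand highest in AT-3 with wild-type MRTFA, Fxyd5 lies between 70.5 and 101 CPM in every library, and Fxyd3 has points above 0 almost only in AT-3 with empty vector.

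Per length, the summed level of the 3 beta subunits in AT-3 was 234 ± 5.50 CPM per kb with wild-type MRTFA, 131 ± 3.74 with Y238A and 84.7 ± 0.66 with empty vector (SD, n = 3 each). In E0771 the sum was 60.5 ± 0.84 CPM per kb with wild-type MRTFA, 59.5 ± 2.70 with Y238A and 55.6 ± 0.98 with empty vector. Atp1b3 made up 94.7% of it in AT-3 with wild-type MRTFA, 97.5% with Y238A and 94.6% with empty vector, and 99.7% in each E0771 group. Atp1b1 made up 4.83%, 2.42% and 5.21% in the same order of AT-3 groups, so its share was lowest with Y238A. The order of the members per length was Atp1b3, Fxyd5, Atp1b1 and Atp1b2 in all AT-3 groups, and Fxyd5 stood above Atp1b3 in all E0771 groups. There Fxyd5 was at 74.2 ± 3.86 CPM per kb with wild-type MRTFA, 70.8 ± 4.345 with Y238A and 80.9 ± 4.33 with empty vector, and Atp1b3 at 60.3 ± 0.79, 59.3 ± 2.63 and 55.5 ± 0.97 CPM per kb in these groups (SD, n = 3 each). This order of Fxyd5 and Atp1b3 in E0771 depends on the length used. The principal transcripts are 1172 bases for Fxyd5 and 1994 for Atp1b3, while all exons joined cover 4192 and 2389 bases. In CPM not divided by length, Atp1b3 stood above Fxyd5 in all E0771 groups.

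Of the FXYD genes, Fxyd5 was expressed in every library and made up at least 97.1% of the summed level of the 4 FXYD genes in each. The others were low. Fxyd1 counts came mostly from E0771, Fxyd3 counts from AT-3 with empty vector apart from 4 in 1 E0771 library, and Fxyd6 had a few counts. Fxyd3 fell in AT-3 with both constructs, Fxyd1 rose in E0771 with wild-type MRTFA, and Fxyd5 rose by 0.21 on the log2 scale in AT-3 with wild-type MRTFA. The calls of Fxyd1 and Fxyd5 were lost when single libraries were left out, and both calls of Fxyd3 were lost under DESeq2.

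Fxyd5 (ENSMUSG00000009687, chr7:31032722-31042481, minus strand) encodes dysadherin, known to weaken cell adhesion through E-cadherin when overproduced. In AT-3 it was at 82.8, 101 and 95.9 CPM with wild-type MRTFA, 85.0, 78.5 and 70.5 CPM with Y238A, and 83.5, 81.3 and 77.2 CPM with empty vector. Wild-type replicate 1 lay inside the range of both other groups, and the other wild-type libraries lay above them. The log2 fold change of wild type was 0.21 ± 0.07 against empty vector (adjusted p = 0.017, edgeR) and 0.26 ± 0.07 against Y238A (adjusted p = 0.0046), and that of Y238A against empty vector was -0.048 ± 0.074 (adjusted p = 0.65). With library totals in place of TMM the comparison with empty vector was 0.056 (adjusted p = 0.49). It was 0.026 without AT-3 wild-type replicate 2 (adjusted p = 0.78), 0.067 without wild-type replicate 3 (0.48) and 0.18 without empty vector replicate 3 (0.060). The comparison with Y238A was 0.086 with library totals (adjusted p = 0.29), 0.098 with wild-type replicate 2 left out (0.27) and 0.14 with replicate 3 left out (0.14). In E0771 it was at 81.8, 90.2 and 88.8 CPM with wild-type MRTFA, 83.2, 77.7 and 87.9 CPM with Y238A, and 89.5, 99.6 and 95.3 CPM with empty vector. Neither construct passed there, at -0.13 ± 0.07 (adjusted p = 0.24) for wild type and -0.19 ± 0.07 (adjusted p = 0.10) for Y238A.

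Fxyd3 (ENSMUSG00000057092, chr7:31068172-31076704, minus strand), first described in mammary tumours, encodes a regulator of the pump in epithelia such as stomach and colon. It had 0 counts in all 6 AT-3 libraries with wild-type MRTFA or Y238A, against 13, 33 and 15 counts with empty vector. The groups did not overlap. Against a floor of 3 counts over the group, wild-type libraries were at least 21.6-fold lower than empty vector (adjusted p = 0.0021, edgeR) and Y238A libraries at least 23.0-fold lower (adjusted p = 0.0034). DESeq2 gave adjusted p-values of 0.23 and 0.28. Fxyd3 passed the filter on low counts only through the empty vector libraries of AT-3. In tests against that group a fall was therefore the only outcome open to it. In E0771 the only counts were 4, in empty vector replicate 2, the E0771 library with the highest share of the AT-3 level (1.35%). The part of carry-over in these counts was not tested. An exon of Lgi4 on the opposite strand covers 42.5% of the exonic bases of Fxyd3. Lgi4 had 7, 11 and 14 counts in wild-type AT-3 libraries, 5, 11 and 6 with Y238A and 28, 8 and 0 with empty vector. The part of Lgi4 reads in the Fxyd3 counts was not tested.

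The window before Fxyd3, chr7:31076648-31076947 on the minus strand, is shown because it was the FXYD gene that fell with both constructs in AT-3. Capitals mark GGAATG, the letters TEAD factors are known to bind.
Fxyd3: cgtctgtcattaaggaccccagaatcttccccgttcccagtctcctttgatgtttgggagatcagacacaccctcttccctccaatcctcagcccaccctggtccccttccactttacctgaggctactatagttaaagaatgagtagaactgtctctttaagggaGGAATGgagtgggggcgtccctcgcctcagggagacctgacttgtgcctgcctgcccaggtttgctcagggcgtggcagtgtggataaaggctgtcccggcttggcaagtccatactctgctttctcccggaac
It holds 1 match, at position 167, and 14.7% of the 32851 promoters hold the letters on either strand. The letters TATAAA were found in the window of Fxyd1 only as their reverse complement, at position 252, which lies after the start site. They are in 13.6% of all promoters on either strand. The Fxyd5 and Fxyd6 windows held none of the 4 motifs searched.

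Fxyd1 (ENSMUSG00000036570, chr7:31051678-31057199, minus strand) encodes phospholemman, the pump regulator of heart and skeletal muscle that protein kinases A and C phosphorylate. In E0771 it was at 0.996, 1.42 and 1.13 CPM with wild-type MRTFA, 0.645, 0.260 and 0.584 CPM with Y238A, and 0.269, 0.337 and 0.568 CPM with empty vector. The wild-type libraries lay above all others, and the other groups overlapped. The log2 fold change of wild type against empty vector was 1.59 ± 0.52 (adjusted p = 0.029, edgeR), that of Y238A against empty vector 0.34 ± 0.52 (adjusted p = 0.75) and that of wild type against Y238A 1.25 ± 0.51 (adjusted p = 0.082, and 0.045 by DESeq2). The first was 1.34 without the 4 carry-over libraries (adjusted p = 0.23), and it lost its call without any 1 of the 3 wild-type libraries or of empty vector replicates 1 and 2 (adjusted p between 0.056 and 0.11). As a share of the 4 FXYD genes per length, Fxyd1 made up 2.49 ± 0.34% with wild-type MRTFA, 1.10 ± 0.42% with Y238A and 0.772 ± 0.299% with empty vector (SD, n = 3 each). In AT-3 it had 2, 3 and 6 counts over the wild-type, Y238A and empty vector groups, too few to follow. The summed level of 8 heart and skeletal muscle markers in E0771 moved with it, at 13.9 to 15.7 CPM with wild-type MRTFA, 4.74 to 5.87 CPM with Y238A and 3.65 to 4.68 CPM with empty vector, with 0, 1 and 1 of them at 0 counts. Their part in the result was not tested. In AT-3, where Fxyd1 was nearly absent, the same sum was 48.1 to 59.7 CPM with wild-type MRTFA, 28.6 to 35.4 CPM with Y238A and 20.4 to 22.7 CPM with empty vector.

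Fxyd6 (ENSMUSG00000066705, chr9:45370185-45396159, plus strand) encodes phosphohippolin, known from brain. It had 4, 8 and 4 counts in wild-type AT-3 libraries and 0 in all other AT-3 libraries, at least 5.02-fold higher than empty vector and 5.67-fold higher than Y238A against a floor of 3 counts over the group. In E0771 it had 2, 4 and 10 counts over the wild-type, Y238A and empty vector groups, each from 1 library. It failed the filter on low counts and was not tested.

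**Figure D2:**
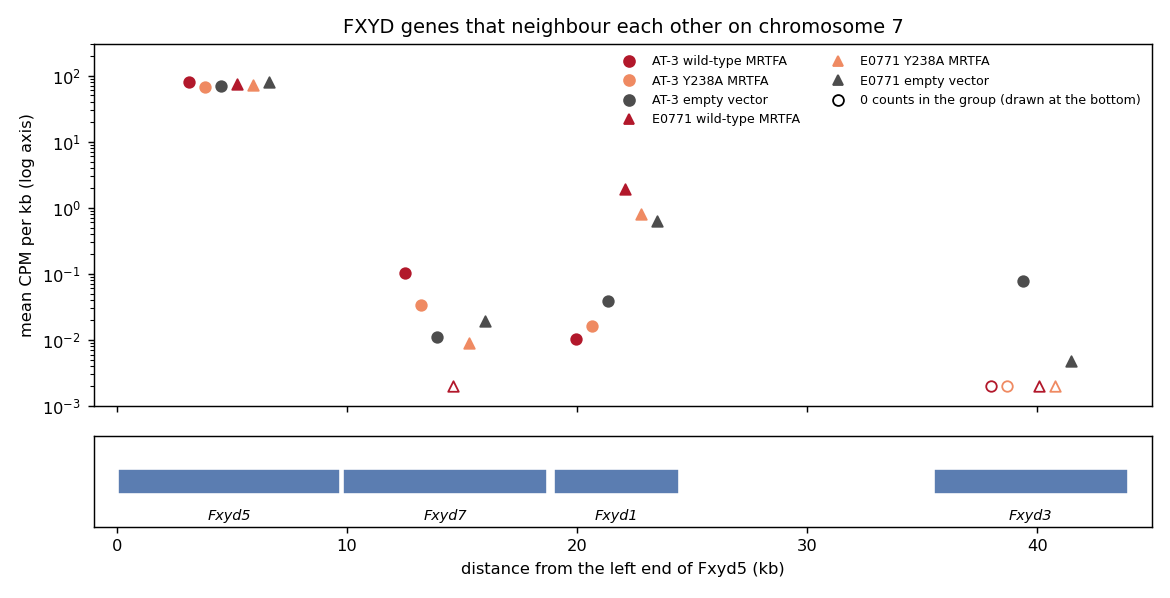
Mean CPM per kb on a log axis (n = 3 libraries per point) of the FXYD genes that neighbour each other on chromosome 7, above boxes for their positions in kb from the left end of Fxyd5; circles are AT-3, triangles E0771, and open symbols are groups with 0 counts. Fxyd5 is at 66.5 to 80.9 CPM per kb in all groups, and its neighbours are far lower and differ between groups.

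Fxyd5, Fxyd7, Fxyd1 and Fxyd3 lie within 44.0 kb on chromosome 7, and did not share a pattern: Fxyd5 was high in all groups, Fxyd1 had few counts outside E0771, and Fxyd3 had 4 counts outside the empty vector libraries of AT-3. Fxyd7, a brain member, had 20, 7 and 2 counts over the wild-type, Y238A and empty vector groups of AT-3. Fxyd6 ends 3.51 kb before Fxyd2, the gamma subunit known from kidney, which had 6, 8 and 18 counts over the same groups.

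The calls of the members are set beside those of all genes. Within a line both constructs were compared with the same 3 empty vector libraries, so these comparisons are not independent. In AT-3 with wild-type MRTFA against empty vector, 5 of 6 tested members passed, where 68.6% of all genes tested did, with 4 higher and 1 lower against 36.4% and 32.2% of all genes. With Y238A against empty vector 2 of 6 passed against 43.7% of all genes: Atp1b3 higher (21.4%) and Fxyd3 lower (22.2%). Fxyd3, counted here and with wild type, passed the filter only through the empty vector group, so it could only be called lower. For wild type against Y238A 4 of 6 passed against 66.2%, all higher (34.8%). In E0771 with wild-type MRTFA against empty vector 2 of 6 passed, both higher (Atp1b3 and Fxyd1), against 24.5% of all genes and 11.2% higher. With Y238A against empty vector in E0771 0 of 6 passed in edgeR against 12% of all genes, with 4 at an unadjusted p under 0.05 and 3 calls by DESeq2. For wild type against Y238A in E0771 0 of 6 passed in edgeR against 25.7%, with 1 at an unadjusted p under 0.05 and 1 call by DESeq2. The median log2 fold change of the 6 members for wild type against empty vector was 0.78 in AT-3, beside 0.071 over all genes, and -0.0027 in E0771, beside -0.046. Only library totals moved the median of all genes by over 0.1 among the scalings, by -0.14 for AT-3 wild type against empty vector, and the share of called genes that were higher there by -8.03 percentage points.

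**Figure D3:**
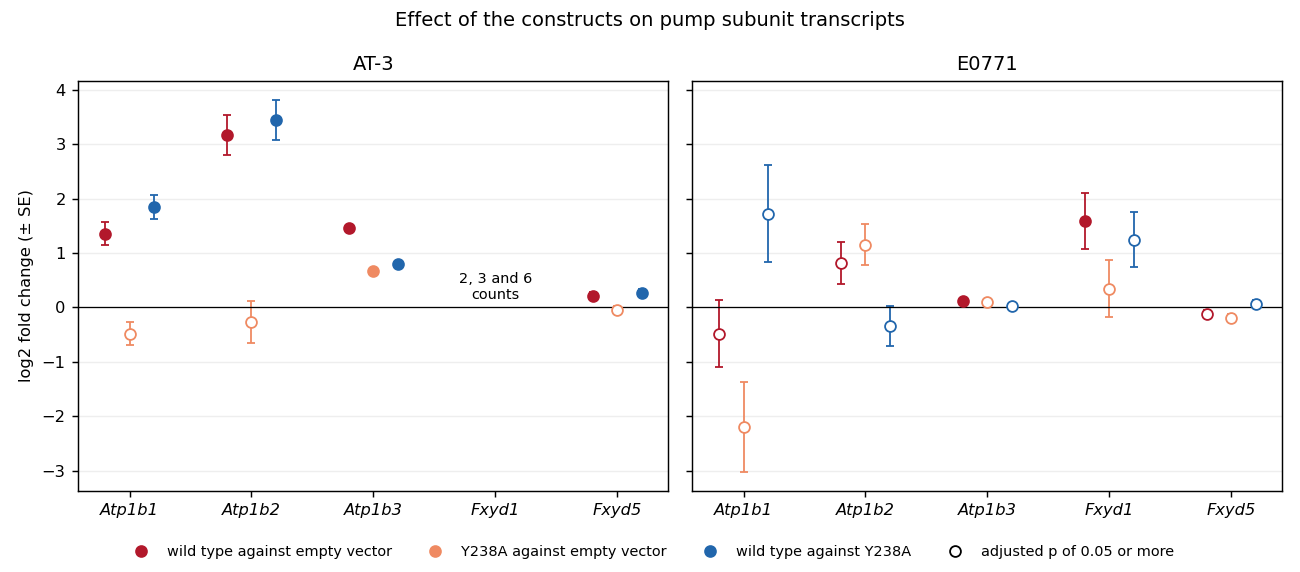
Log2 fold changes (± SE, edgeR) of the members with a fitted value in AT-3 and E0771, for each construct against empty vector and for the constructs against each other; filled points have an adjusted p under 0.05. In AT-3 the Y238A effect on Atp1b3 (0.67) is between 0 and the wild-type effect (1.47). Those on Atp1b1 (-0.48) and Atp1b2 (-0.28) did not pass, and that of Atp1b2 changes sign without empty vector replicate 1. Fxyd1 in AT-3 had 2, 3 and 6 counts, and Fxyd3 and Fxyd6, at 0 counts in a group, are not drawn.

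The effects also differed between the lines. The construct level was higher in AT-3 as well, so line and construct level cannot be told apart in these differences. For wild type against empty vector, 4 of the 6 tested members differed, all with the larger value in AT-3, where 47.3% of all genes differed and 24.0% had the larger value in AT-3. The AT-3 effect minus the E0771 effect was 1.35 ± 0.06 for Atp1b3 (adjusted p = 1.7e-13, edgeR), 2.36 ± 0.52 for Atp1b2 (adjusted p = 8.7e-04), 1.84 ± 0.66 for Atp1b1 (adjusted p = 0.030) and 0.33 ± 0.10 for Fxyd5 (adjusted p = 0.012). That of Atp1b1 rests on few counts in E0771 and was 0.81 without the 4 carry-over libraries (adjusted p = 0.34) and 0.41 without E0771 empty vector replicate 2 (adjusted p = 0.68). It also lost its call with no filter on low counts and without AT-3 wild-type replicate 2 or 3 or E0771 wild-type replicate 1 or 3, at 1.64 to 1.83 (adjusted p between 0.057 and 0.085). That of Fxyd5 was 0.20 with library totals (adjusted p = 0.11), 0.095 without AT-3 wild-type replicate 2 and 0.14 without replicate 3. Fxyd1 went the other way, at -3.13 ± 1.36 (adjusted p = 0.065), and rests on few counts in AT-3. It passed under DESeq2 (0.034) and without AT-3 wild-type replicate 1 (0.025). It also passed without AT-3 empty vector replicate 2 (0.023) or E0771 empty vector replicate 3 (0.046), and its highest adjusted p under an alternative was 0.36. For Y238A against empty vector Atp1b3 differed, by 0.57 ± 0.06 (adjusted p = 1.9e-07), 1 member of 6 against 25.8% of all genes, 13.6% with the larger value in AT-3. The difference of Atp1b2 was -1.43 ± 0.54 (adjusted p = 0.057). It passed under DESeq2 (0.029), with the stricter filter (0.036), and with replicate 3 of Y238A or of empty vector in AT-3, or replicate 2 of Y238A or 3 of empty vector in E0771, left out (0.022 to 0.042). For wild type against Y238A 2 of 6 differed, against 45.7% of all genes and 22.7% with the larger value in AT-3: Atp1b2 by 3.79 ± 0.51 (adjusted p = 3.7e-06) and Atp1b3 by 0.78 ± 0.06 (adjusted p = 4.5e-10).

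With empty vector, AT-3 and E0771 differed in 5 of 6 tested members, where 72.0% of all genes did, 36.8% being higher and 35.2% lower in AT-3. Atp1b1 was higher in AT-3 by 6.40 ± 0.34 on the log2 scale (adjusted p = 8.2e-12, edgeR), and by 7.84 without the 4 carry-over libraries (adjusted p = 5.4e-14). Atp1b3 was higher by 0.53 ± 0.04 (adjusted p = 1.2e-10) and Fxyd3 by 3.95 ± 1.20 (adjusted p = 0.010, and 0.48 by DESeq2). The Fxyd3 value rests on the 4 counts of E0771 empty vector replicate 2. The gene passed the filter only through AT-3 with empty vector, so it could only be called higher there. Without the 4 carry-over libraries the adjusted p was 0.0039, and E0771 with empty vector was at 0 counts, so no fold is given. Fxyd1 was lower in AT-3, at -4.01 ± 0.73 (adjusted p = 5.1e-05), and so was Fxyd5, at -0.23 ± 0.07 (adjusted p = 0.0082). Atp1b2 did not pass at 0.47 ± 0.39 (adjusted p = 0.29). A lower level in bulk RNA cannot tell fewer cells with a transcript from less of it per cell.

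Of 11 other subunits and relatives of the pump, 4 passed the filter on low counts. In AT-3 with wild-type MRTFA 1 rose and 2 fell (median log2 fold change 0.17, beside 0.071 over all genes), and with Y238A 0 rose and 2 fell (-1.07, beside 0.0055). In E0771 0 rose and 1 fell with wild-type MRTFA, and 0 rose and 1 fell with Y238A. Of the 4, Atp12a and Nkain2 had 0 to 2 counts per group in E0771, and no median is given there. Atp12a, a catalytic subunit of the non-gastric proton-potassium pump, had 95, 91 and 76 counts in AT-3 with wild-type MRTFA against 0, 4 and 0 with empty vector, at 5.86 ± 0.97 (adjusted p = 4.9e-05, edgeR). It passed the filter only through these wild-type libraries, so a rise there was the only outcome open to it. Nkain1, a membrane protein that binds beta-1, fell in all 4 comparisons against empty vector, in AT-3 by 1.78 ± 0.08 on the log2 scale for wild type and 1.36 ± 0.08 for Y238A (adjusted p = 1.0e-13 and 2.9e-11). In E0771 the falls were 0.32 ± 0.08 and 0.30 ± 0.08 (adjusted p = 0.0042 and 0.013). Its relative Nkain2 fell in AT-3 with both constructs, to means of 1.80 CPM with wild-type MRTFA and 1.51 CPM with Y238A, against 3.50 CPM with empty vector. Fxyd4, a kidney and colon member, did not pass in any of these 4 comparisons, and the 7 others were too low to test.

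**Figure D4:**
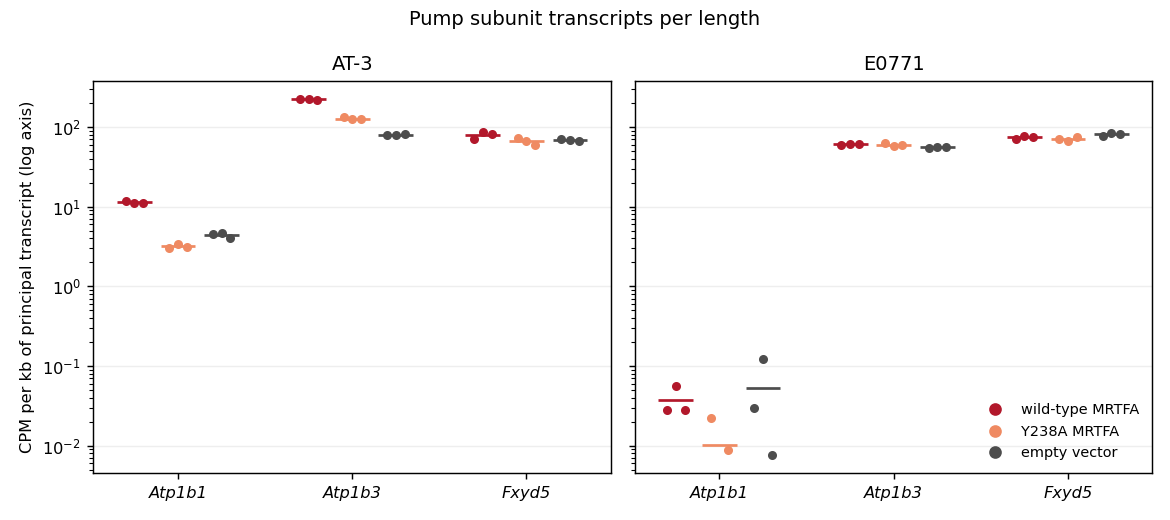
CPM per kb of principal transcript on a log axis for Atp1b1, Atp1b3 and Fxyd5 in each library of AT-3 and E0771; points are libraries, lines group means, and 1 library with 0 counts of Atp1b1 is not drawn. In AT-3 Atp1b3 stands above Fxyd5 and Atp1b1 in every group, and in E0771 Atp1b1 is near the bottom of the axis.

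Other lists cover the surroundings of the pump and are given by counts and medians with wild type set against empty vector. Of 24 tested genes for sodium- and potassium-coupled transport, 9 rose and 8 fell in AT-3 with wild-type MRTFA, while 4 rose and 2 fell in E0771. Of all genes tested 68.6% passed in AT-3 and 24.5% in E0771, which apply to each list here, and with Y238A 43.7% and 12%. The median log2 fold change was 0.17 in AT-3, beside 0.071 over all genes, and -0.039 in E0771, beside -0.046. Slc4a7, a sodium-bicarbonate cotransporter, rose in both lines, by 1.50 ± 0.07 (AT-3) and 0.48 ± 0.07 (E0771). Slc12a3, the thiazide-sensitive cotransporter of kidney, rose by 2.98 ± 0.35 (AT-3) and 6.10 ± 0.53 (E0771). Its means were 4.08 CPM against 0.515 CPM with empty vector in AT-3. In E0771 they were 1.46 CPM against 0.0198 CPM, so the E0771 fold rests on a gene close to absent with empty vector. Slc9a9, an endosomal sodium-proton exchanger, fell in both, by 2.11 ± 0.22 (AT-3) and 0.60 ± 0.20 (E0771). Slc12a2, the sodium-potassium-chloride cotransporter NKCC1, fell by 0.71 ± 0.08 (AT-3) and 0.23 ± 0.08 (E0771). With Y238A 3 rose and 5 fell in AT-3 (median 0.14, beside 0.0055 over all genes), and 2 rose and 1 fell in E0771 (0.095, beside -0.0060). Of 18 kinases and ligases that act on ion transport, 7 rose and 7 fell in AT-3 with wild-type MRTFA, while 5 rose and 3 fell in E0771, at a median of 0.50 in AT-3 and one of 0.047 in E0771. Nedd4l, a ubiquitin ligase that removes the epithelial sodium channel, rose by 1.82 ± 0.04 (AT-3) and 0.84 ± 0.04 (E0771). Prkacb, a catalytic subunit of protein kinase A, rose by 0.97 ± 0.04 in AT-3. Nedd4, a related ubiquitin ligase, fell by 1.36 ± 0.05 in AT-3, and Prkca, a protein kinase C, fell by 1.14 ± 0.04 (AT-3) and 0.21 ± 0.04 (E0771). With Y238A 3 rose and 7 fell in AT-3 (median -0.19), and 0 rose and 3 fell in E0771 (-0.072).

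Of 11 genes for volume-regulated channels and volume sensing, 5 rose and 3 fell in AT-3 with wild-type MRTFA, while 3 rose and 4 fell in E0771, at a median of 0.47 in AT-3 and one of -0.20 in E0771. Lrrc8c, a subunit of the volume-regulated anion channel, rose by 1.48 ± 0.09 (AT-3) and 1.20 ± 0.09 (E0771), and Akr1b3, an aldose reductase, by 1.14 ± 0.05 in AT-3. Aqp1, a water channel, fell by 2.32 ± 0.14 (AT-3) and 0.53 ± 0.11 (E0771), and Trpv4, a calcium channel opened by swelling, by 2.30 ± 0.26 in AT-3. With Y238A 5 rose and 2 fell in AT-3 (median 0.071), and 1 rose and 1 fell in E0771 (0.024). Of 14 genes for cell adhesion around dysadherin and the beta subunits, 4 rose and 4 fell in AT-3 with wild-type MRTFA, while 2 rose and 2 fell in E0771, at a median of -0.021 in AT-3 and one of -0.19 in E0771. Ctnna1 and Ctnnd1, the alpha- and delta-catenins of adherens junctions, rose by 0.45 ± 0.05 and 0.35 ± 0.05 in AT-3 and by 0.37 ± 0.05 and 0.40 ± 0.05 in E0771. Ccl2, a chemokine that draws monocytes, fell by 2.70 ± 0.17 in AT-3, and Akt1, a survival kinase, by 0.68 ± 0.05 (AT-3) and 0.19 ± 0.05 (E0771). Ctnnb1, beta-catenin, fell by 0.16 ± 0.04 (AT-3) and 0.22 ± 0.04 (E0771). With Y238A 2 rose and 2 fell in AT-3 (median 0.022), and 2 rose and 1 fell in E0771 (0.14).

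The genes most alike in pattern were taken as those with the smallest root-mean-square difference from a member in log2(CPM + 0.5), each profile centred on its own mean, over 18 libraries and 11560 genes. For Atp1b3 they were Ormdl3 at 0.118 and H2afj at 0.122. Atp1b1 had Rora at 0.205 and Dnaja4 at 0.244 beside its own spread of 2.39, and Atp1b2 had Me2 at 0.260 and Sbds at 0.268 beside 0.806. Fxyd1 had Arhgef25 at 0.221 and Speg at 0.227 beside 0.655. Atp1b2 and Fxyd1 were near or below 0.5 CPM in most libraries, so the added 0.5 flattens their changes. The genes named for these 2 members are like the flattened profiles. Fxyd5 and Fxyd3 varied so little on this scale, by 0.133 and 0.208, that their nearest genes, Srprb at 0.0708 and Med4 at 0.0791, and Rpl15 at 0.0833 and Eif4g1 at 0.0911, are those that also varied little.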

How the data were processed

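The deposited table holds raw counts per gene from mRNA sequencing of 18 libraries, in 6 groups of 3. Per the labels' protocols RNA came from Qiagen RNeasy columns and libraries from a NuGen kit (Universal Plus mRNA). Per the submitters' processing notes the tools were STAR and featureCounts, no version given, on build GRCm38. The annotation release and strand setting are not given in the sources used here. Between 61.9% and 64.6% of nonzero counts were even, so both mates of a pair appear to have been counted, and floors, which cover counting error only, are too low.

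The test was edgeR 4.0.16 (R 4.3.3) with robust quasi-likelihood F tests over 6 group means, 12 residual degrees of freedom, TMM scaling, and filterByExpr with a minimum count of 10 and total of 15. Adjustment was by Benjamini-Hochberg over the 17841 tested genes, with a threshold of 0.05. Of 32286 entries, 32158 matched a gene symbol. CPM per kb used principal transcripts of GENCODE M21. Promoter sequences are RefSeq's for GRCm38.p6, matched for 6 of the 7 genes. A fold was followed where a group held more than 10 counts, and a group at 0 was set to a floor of 3 counts over the group. Steps were tested on simulated data. Replicates of a group differed by more than sampling noise, and the model held no replicate term. Alternatives were DESeq2 1.42.0 or its size factors, library totals, no filter on low counts, a filter keeping genes that reach 1 CPM in 3 libraries with 50 counts on average (stricter filter), an absolute log2 fold change of 1 or more besides the adjusted p (fold limit), each line alone, a replicate block, each library left out, and the 4 carry-over libraries left out. All members were named, and from each list up to 2 genes per direction and line by smallest p, at a mean of 1 CPM or more, of which some are left out for room. Members and lists were chosen with earlier results of these data known. A few genes of these lists are not reported here.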

Additional observations from a re-analysis of the deposited data

Results flagged for a closer look

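These results were picked out because the effect of a construct differed between AT-3 and E0771 in a test of the difference itself. Both constructs stood at a higher level in AT-3, so line and construct level cannot be told apart here. Values are the AT-3 effect minus the E0771 effect on the log2 scale, ± SE, with adjusted p from edgeR. For wild type against empty vector they were 1.84 ± 0.66 for Atp1b1 (adjusted p = 0.030), 2.36 ± 0.52 for Atp1b2 (8.7e-04), 1.35 ± 0.06 for Atp1b3 (1.7e-13) and 0.33 ± 0.10 for Fxyd5 (0.012). Those of Atp1b1 and Fxyd5 were lost in several alternatives, given beside them above. For Y238A against empty vector the difference was 0.57 ± 0.06 for Atp1b3 (1.9e-07). For wild type against Y238A it was 3.79 ± 0.51 for Atp1b2 (3.7e-06) and 0.78 ± 0.06 for Atp1b3 (4.5e-10).

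Among the other subunits and relatives, Nkain1 differed by -1.46 ± 0.11 for wild type against empty vector (adjusted p = 1.3e-09), -1.06 ± 0.11 for Y238A against empty vector (4.9e-07) and -0.41 ± 0.11 for wild type against Y238A (0.0052).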

How the results depend on the processing

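Of 756 values of a member under an alternative, 683 kept their direction and their side of the threshold, 34 lost a call, 28 gained one and 11 turned sign. Replicate numbers were not taken as pairing the libraries, since only 13 of 45 same-number correlations were over 0.1, but 16 of 18 libraries correlated best with their own number, a hint from the data. The replicate block changed no call, with 5 members called in AT-3 for wild type against empty vector. Counts of members called moved as follows. Y238A against empty vector in AT-3 (2) gave 1 with DESeq2, the stricter filter and the fold limit; wild type against Y238A in AT-3 (4) gave 2 with the fold limit. E0771 wild type against empty vector (2) gave 1 with library totals, no filter, the stricter filter and the fold limit, 0 without the carry-over libraries, and 0 to 2 with 1 library left out. E0771 Y238A against empty vector (0) gave 3 with DESeq2, 1 with its size factors, 2 with library totals and the stricter filter, and 0 to 2 with 1 library left out. E0771 wild type against Y238A (0) gave 1 with DESeq2, with E0771 alone and without the carry-over libraries. AT-3 against E0771 (5) gave 3 with the stricter filter and the fold limit. Line differences for wild type (4) gave 2 to 5 with 1 library left out, for Y238A (1) gave 2 with DESeq2 and the stricter filter, 0 with the fold limit and 1 to 3 with 1 library left out, and for wild type against Y238A (2) gave 1 with the fold limit. The cause was not tested, except that the stricter filter left out Fxyd1 and Fxyd3 and the fold limit asks for more.

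Signs turned only in values that had not passed. With 1 library left out, Atp1b2 with Y238A in AT-3 was -0.54 to 0.037 (highest without empty vector replicate 1) and Fxyd5 -0.12 to 0.025 (highest without Y238A replicate 3). Atp1b1 with wild type in E0771 was 0.55 without the carry-over libraries and -0.999 to 0.95 with 1 library left out (highest without empty vector replicate 2). Atp1b3 for wild type against Y238A in E0771 was -0.027 with library totals and -0.0045 to 0.059 with 1 library left out (lowest without Y238A replicate 2). The line difference of Atp1b1 for wild type against Y238A was -0.0057 with library totals, -0.75 without the carry-over libraries, and -1.12 to 0.66 with 1 library left out (below 0 without E0771 wild-type replicate 1 or 3 or Y238A replicate 1). Over all genes, calls without the carry-over libraries were 2762, beside 4364, for E0771 wild type and 843, beside 2149, for E0771 Y238A, and 1251 for E0771 Y238A without E0771 empty vector replicate 2. Library totals put 42.2% of called genes higher, beside 52.6%, for wild type against Y238A in AT-3, 59.0%, beside 44.9%, for Y238A in E0771, and 37.8%, beside 49.4%, for wild type against Y238A in E0771; for the line differences they gave 40.2%, beside 50.8%, for wild type and 39.3%, beside 49.8%, for wild type against Y238A. Depth limits Atp1b1 in E0771 and Fxyd1, Fxyd3 and Fxyd6 in all groups.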
